A study of Ovis aries with 16 samples.

Results

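The PPAR signaling transcripts described here are ENSOART00020008363, ENSOART00020016887 and ENSOART00020040605, which the study's KEGG analysis places in this pathway. Supplementary material of the paper prints 4 transcript identifiers for this pathway, and the one of FABP4 was left out, which left 3 of the 35219 transcripts in the deposited table. The 3 were chosen by the study on their expression, which it found higher in growth-restricted than in control males, so their difference between these 2 groups is given as a description with no test. Perirenal adipose tissue, the fat around the kidney, was taken from near-term fetuses of Columbia-Rambouillet crossbred ewes with singleton pregnancies. Control males (MC) and control females (FC) came from ewes kept at a moderate temperature and pair-fed to the heated ewes. Growth-restricted males (MFGR) and growth-restricted females (FFGR), whose treatment the labels give as hyperthermia, came from ewes held at high ambient temperature during pregnancy, which makes the placenta insufficient. Each of the 4 groups has 4 libraries, 1 per fetus, 16 in all. The growth restriction follows a heat treatment of the ewe, so in this model its effect cannot be told apart from that of the heat itself.

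PPARs are nuclear receptors that bind fatty acids and their derivatives, pair with the retinoid X receptor and switch on genes of lipid handling. PPARG drives the differentiation of preadipocytes into fat cells and turns on genes such as FABP4 and ADIPOQ, and PPARA turns on genes of fatty acid oxidation. In brown fat, which fetal sheep carry around the kidney before birth, PPARs also act on UCP1, the protein that lets mitochondria make heat.

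The table lists transcripts without gene names, and none of the identifiers is in the annotation at hand, so the genes of the 3 transcripts are not named here and no sequence of them is shown. ENSOART00020016887 also stands in the paper's list of metabolic pathways for the same comparison, and the other 2 stand in no other printed list of it. Of 71 genes listed for PPAR signaling, the 3 that could be matched to a transcript through the paper's names were FABP4, a carrier of fatty acids in mature adipocytes, ADIPOQ, the hormone adiponectin, and UCP1, and the values given under these symbols are those of the 1 transcript the paper names for each. Values are in TPM (length-adjusted transcript abundance scaled to a sum of 1000000 in each library), from which the sequencing depth cannot be known. Fold changes are on the log2(TPM + 1) scale, which understates the change of low transcripts, and come from a limma fit of all 16 libraries over the 4574 transcripts that reached 20 TPM in 3 or more libraries. The word called is used for an adjusted p (Benjamini-Hochberg) below 0.05 together with a fold of more than 1.5.

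Adipocyte transcripts were abundant in every group, as the tissue label says. FABP4 had a lowest library value of 1416 TPM, ADIPOQ one of 1741 TPM and UCP1 one of 1317 TPM. The summed level of the 3 mature adipocyte transcripts (ADIPOQ, FABP4 and leptin) ranged from 3751 to 6247 TPM in MC, from 4977 to 11895 TPM in MFGR, from 4851 to 12156 TPM in FC and from 4766 to 5162 TPM in FFGR. The 2 transcripts of THY1, a surface protein of preadipocytes and stromal cells, summed to 36.9 to 81.7 TPM in MC, 17.4 to 39.2 TPM in MFGR, 27.4 to 88.7 TPM in FC and 14.9 to 84.5 TPM in FFGR. On average the THY1 sum was lower in MFGR than in MC (25.9 against 63.4 TPM) and the adipocyte sum was higher (8054 against 4779 TPM). The higher sum came from FABP4 alone (6015 against 2445 TPM), itself listed by the study for its difference between these groups, while ADIPOQ (2015 against 2305 TPM) and leptin (24.2 against 29.3 TPM) were on average lower in MFGR. Their part in the differences below was not tested. In bulk tissue, fewer cells of a type and less RNA per cell cannot be told apart.

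The 3 transcripts differ in level. ENSOART00020040605 was the most abundant, with a mean of 107.6 TPM over the 16 libraries, above 82.9% of the transcripts tested. ENSOART00020016887 had a mean of 39.6 TPM, above 55.9% of them. ENSOART00020008363 was low, with a mean of 18.8 TPM, above 16.2% of them. ENSOART00020040605 stood above both others in 16 of 16 libraries, and ENSOART00020016887 stood above ENSOART00020008363 in 14 of 16. All 3 passed the filter on low values, but ENSOART00020008363 did so with 4 libraries only, 1 of MFGR, 2 of FC and 1 of FFGR. FABP4, with a mean of 3984 TPM, was far above all of them. Among the 3, the lower a transcript was, the more it varied, with a highest library 2.23 times the lowest for ENSOART00020040605, 4.94 times for ENSOART00020016887 and 13.2 times for ENSOART00020008363. This order did not extend to FABP4, with a highest library 7.32 times the lowest.

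ENSOART00020016887 separated the growth-restricted from the control males most clearly. It measured 19.1, 22.2, 23.2 and 25.4 TPM in the MC libraries and 58.5, 94.6, 58.6 and 57.4 TPM in the MFGR libraries. The FC libraries had 31.2, 30.8, 32.9 and 20.8 TPM, and the FFGR libraries had 53.0, 34.1, 31.1 and 41.3 TPM. The 4 MFGR libraries lay above the other 12, 3 of them close together and the second replicate well above them. The group means were 22.5 ± 2.60 TPM in MC, 28.9 ± 5.47 TPM in FC, 39.9 ± 9.71 TPM in FFGR and 67.3 ± 18.2 TPM in MFGR (SD, n = 4). In this order, MC and FC overlapped, FC and FFGR overlapped, and FFGR and MFGR did not. The log2 difference between MFGR and MC was 1.51 with a standard error of 0.20, a 2.85-fold higher level, and it ranks 48th from the highest among the 4574 transcripts.

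ENSOART00020040605 was also higher in all growth-restricted than in all control males, by less. It measured 82.9, 111.3, 87.1 and 78.5 TPM in the MC libraries and 175.1, 135.7, 124.2 and 129.9 TPM in the MFGR libraries. The FC libraries had 88.5, 86.1, 160.4 and 88.2 TPM, and the FFGR libraries had 95.8, 105.7, 87.9 and 83.9 TPM. Outside MFGR the transcript was nearly level, with 11 of 12 libraries between 78.5 and 111.3 TPM, and the third FC replicate alone reached into the MFGR range. The means were 89.9 ± 14.7 TPM in MC, 93.3 ± 9.62 TPM in FFGR, 105.8 ± 36.4 TPM in FC and 141.2 ± 23.1 TPM in MFGR (SD, n = 4). Each neighbouring pair in this order overlapped. The log2 difference between MFGR and MC was 0.65 with a standard error of 0.19, a 1.56-fold higher level, the 220th from the highest.

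ENSOART00020008363 was higher in MFGR than in MC on average, but the 2 ranges overlapped. It measured 4.47, 10.2, 17.1 and 6.92 TPM in the MC libraries and 45.2, 14.3, 19.2 and 18.4 TPM in the MFGR libraries. The FC libraries had 16.8, 9.03, 58.9 and 26.0 TPM, and the FFGR libraries had 11.4, 24.2, 11.2 and 8.02 TPM. The highest MC library exceeded the lowest MFGR library, so that MFGR was higher in 15 of the 16 pairs of libraries. The highest value of all was that of the third FC replicate. The means were 9.67 ± 5.48 TPM in MC, 13.7 ± 7.14 TPM in FFGR, 24.3 ± 14.1 TPM in MFGR and 27.7 ± 21.9 TPM in FC (SD, n = 4), and each neighbouring pair in this order overlapped. The log2 difference between MFGR and MC was 1.24 with a standard error of 0.52, a 2.37-fold higher level, the 68th from the highest. Without the first MFGR replicate, the highest of its group, it was 0.91.

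**Figure D1:**
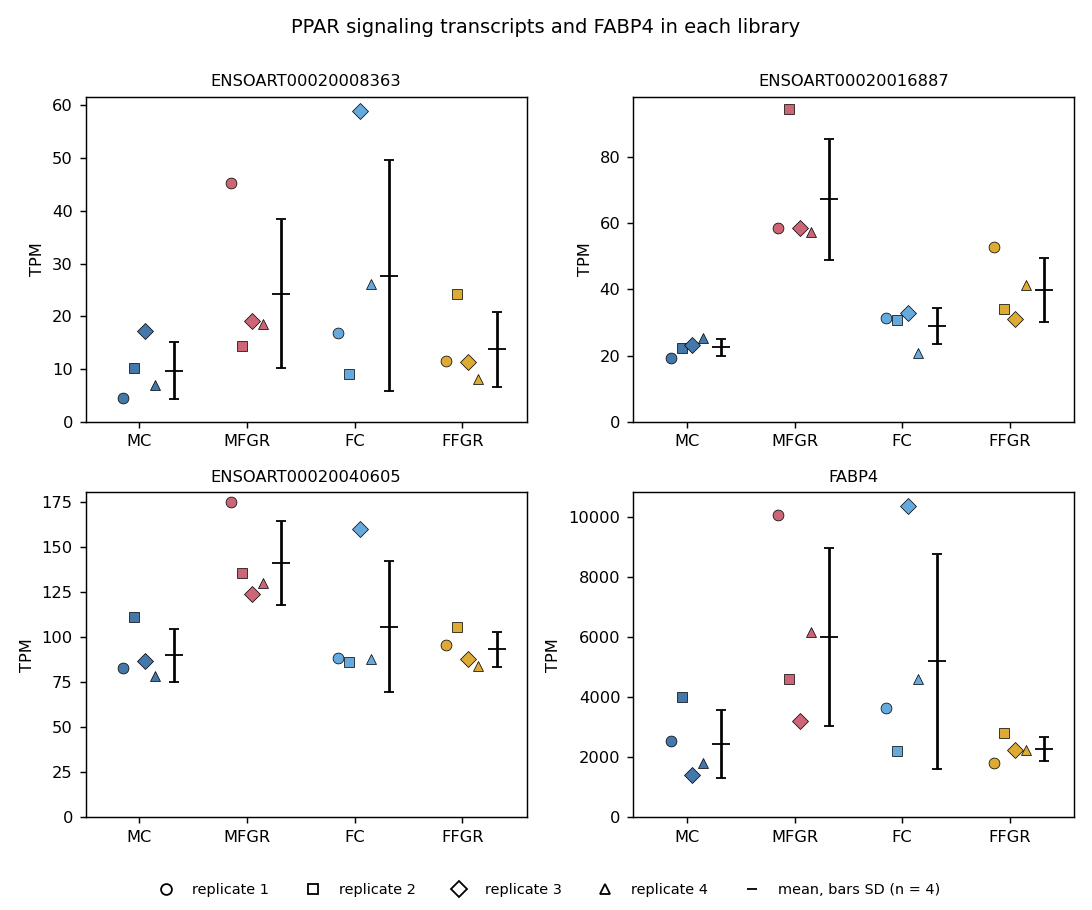
TPM of ENSOART00020008363, ENSOART00020016887, ENSOART00020040605 and FABP4 in each of the 16 libraries by group, with the group mean and SD (n = 4). ENSOART00020016887 shows all 4 MFGR libraries above the other 12, while the third FC replicate (light blue diamond) is the highest or second highest of all libraries in the other 3 panels.

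The background of the male comparison is needed to read these differences. The MFGR libraries lay wholly above the MC libraries for 5.47% of the 4574 transcripts, and for 2 of the 3 described here. Since the study chose the transcripts on these libraries, nothing follows from that count. The median log2 difference between MFGR and MC over all 4574 transcripts was -0.02. The named genes of the pathway differed among themselves in this comparison. FABP4 was 2.43-fold higher in MFGR than in MC (log2 difference 1.28, standard error 0.44). ADIPOQ differed by -0.20 on the log2 scale (standard error 0.18) and UCP1 by 0.24 (standard error 0.34).

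Taken as a mean of log2(TPM + 1), the 3 transcripts placed MFGR above MC without overlap. This mean was 4.39, 4.94, 5.08 and 4.67 in the MC libraries and 6.29, 5.87, 5.73 and 5.73 in the MFGR libraries. It was 5.22, 4.92, 6.11 and 5.23 in the FC libraries and 5.33, 5.51, 5.03 and 5.00 in the FFGR libraries. The female groups overlapped each other and the upper MC libraries, and the third FC replicate was the second highest of the 16 libraries. The group means were 4.77 ± 0.30 in MC, 5.22 ± 0.25 in FFGR, 5.37 ± 0.51 in FC and 5.91 ± 0.27 in MFGR (SD, n = 4). MFGR was higher than MC by 1.13, and FFGR differed from FC by -0.15. No p is given for this mean, since its transcripts were chosen.

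**Figure D2:**
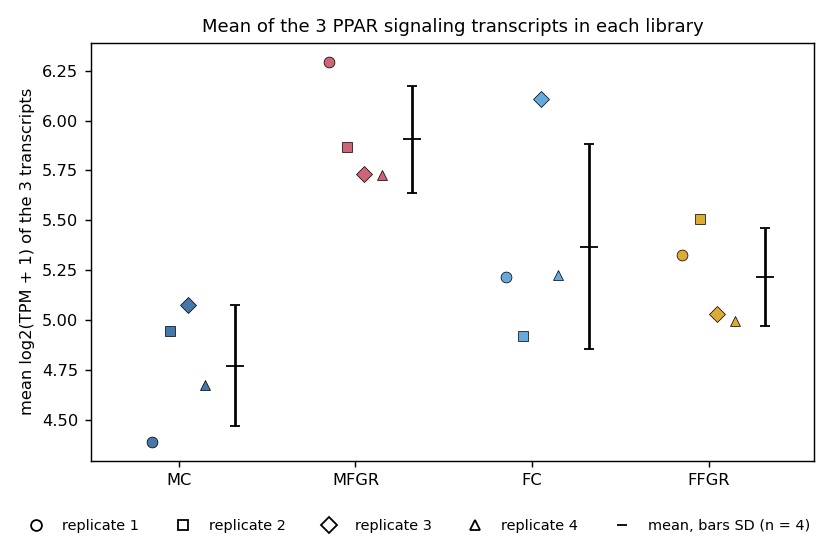
Mean of log2(TPM + 1) over the 3 PPAR signaling transcripts in each library by group, with the group mean and SD (n = 4). MFGR libraries sit between 5.73 and 6.29, MC libraries between 4.39 and 5.08, and the third FC replicate at 6.11.

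The study chose the transcripts on MFGR against MC and not on FFGR against FC, so growth restriction in females could be tested. The FC and FFGR libraries may still have entered that choice through the study's own filter and normalization. In the fit used here, ENSOART00020008363 passed the filter on low values with 4 libraries, and 2 of these were of FC, so its test leans towards a high FC level. Another filter cannot change its difference, so an unchanged difference is no check on this. With a filter of 1 TPM, or with none, its adjusted p was 0.936 and 0.844 in limma. None of the 3 was called between FFGR and FC in limma, as was true of all 4574 transcripts (0.0% called). This fit also called few between MFGR and MC, 10 higher and 11 lower. With a filter of 1 TPM, 1 transcript was called higher and 3 lower in FFGR than in FC, and with no filter 1 and 4. In the fit used here 337 transcripts, 7.37% of those tested, had an unadjusted p under 0.05 between FFGR and FC in limma. Of the 3 described here, only ENSOART00020016887 was among them. Its level was 1.36 times as high in FFGR as in FC, higher in 14 of the 16 pairs of libraries. Its log2 difference of 0.44 had a 95% interval from 0.02 to 0.86 (adjusted p = 0.648 in limma), a difference that failed the correction. ENSOART00020040605 differed by -0.13, with a 95% interval from -0.53 to 0.27 (adjusted p = 0.930 in limma). ENSOART00020008363 differed by -0.77, with a wide 95% interval from -1.88 to 0.34 (adjusted p = 0.805 in limma). These intervals leave room for a change in females of either direction in ENSOART00020008363 and ENSOART00020040605.

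The named genes of the pathway were not called in females either. FABP4 differed by -0.98 between FFGR and FC (95% interval from -1.91 to -0.04, adjusted p = 0.652 in limma), with 1801 to 2796 TPM in FFGR and 2200 to 10369 TPM in FC. ADIPOQ differed by 0.12 (adjusted p = 0.939 in limma) and UCP1 by -0.09 (adjusted p = 0.979 in limma). Without the third FC replicate FABP4 differed by -0.57 (95% interval from -1.42 to 0.28, adjusted p = 0.969 in limma), and the signs of ADIPOQ (-0.05) and UCP1 (0.18) turned.

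One library weighed heavily on the female comparison. In the third FC replicate ENSOART00020008363 was 3.41 times, ENSOART00020040605 1.83 times and ENSOART00020016887 1.19 times the mean of the other 3 FC libraries. FABP4 was 2.98 times and UCP1 2.07 times as high there as in the others, and ADIPOQ 0.628 times. Over all 4574 transcripts this library stood apart upward from its group for 0.721% by Dixon's criterion, fewer than the 1.38% of the first FC replicate. Without it, the log2 difference between FFGR and FC was -0.31 for ENSOART00020008363 (adjusted p = 0.987 in limma). For ENSOART00020040605 the sign turned, to 0.09 (95% interval from -0.21 to 0.38, adjusted p = 0.987 in limma). For ENSOART00020016887 it was 0.51 (95% interval from 0.05 to 0.97, adjusted p = 0.931 in limma), close to the value with all libraries. The mean over the 3 transcripts then differed by 0.09. Leaving out any other single female library gave -1.17 to -0.57 for ENSOART00020008363 and -0.21 to -0.08 for ENSOART00020040605.

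**Figure D3:**
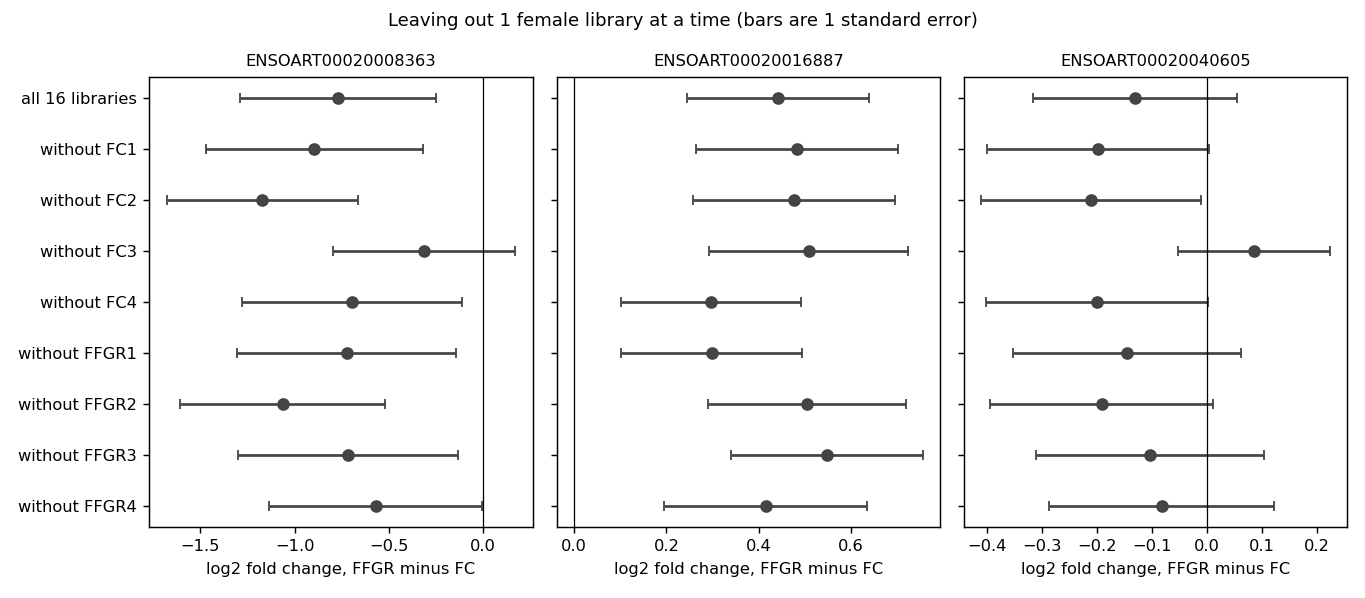
Log2 fold change of FFGR against FC for each of the 3 transcripts with all 16 libraries and without each female library in turn; bars are 1 standard error, and the panels have their own horizontal scales. Without the third FC replicate ENSOART00020008363 moves from -0.77 to -0.31 and ENSOART00020040605 crosses 0, while ENSOART00020016887 stays above 0 in every row.

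The difference of the response between the sexes was not tested for the chosen transcripts, because it holds the male difference on which they were chosen. The response of males minus that of females was 2.01 for ENSOART00020008363 (standard error 0.74), 1.07 for ENSOART00020016887 (0.28) and 0.78 for ENSOART00020040605 (0.26) on the log2 scale. For ENSOART00020016887 both sexes had a higher mean in the growth-restricted group, by 1.51 in males and 0.44 in females. For ENSOART00020008363 and ENSOART00020040605 the mean was higher in growth-restricted males and lower in growth-restricted females, for ENSOART00020040605 not without the third FC replicate.

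**Figure D4:**
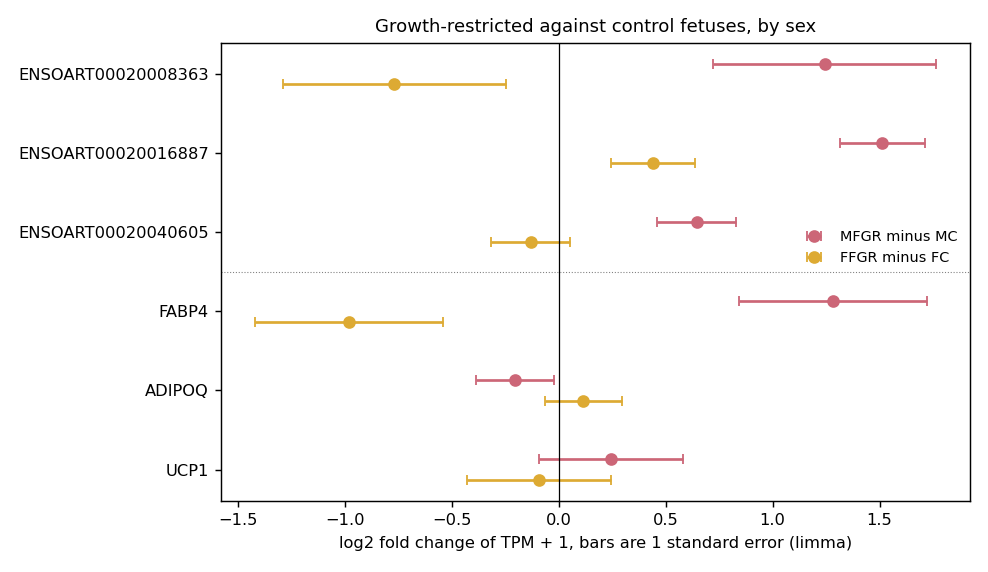
Log2 fold change of growth-restricted against control fetuses in males (red) and females (yellow), with 1 standard error, for the 3 transcripts and, under the dotted line, the 3 named transcripts of the pathway. The 3 male values of the upper rows, 1.24, 1.51 and 0.65, chose these transcripts and are no test.

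Sex, averaged over control and growth-restricted fetuses, was tested with a limit. This contrast is uncorrelated with the difference between MFGR and MC only where both groups have the same spread. For ENSOART00020016887 the log2 SD was 0.16 in MC and 0.35 in MFGR, so its test leans towards a higher male level. For ENSOART00020040605 it was 0.22 in both groups, and for ENSOART00020008363 0.73 in MC and 0.70 in MFGR. Of all transcripts tested, 30.3% were called between males and females in limma, and 0 of the 3 were. At an adjusted p under 0.05 with no fold required these were 57.3%, and again 0 of the 3. Males against females, ENSOART00020016887 differed by 0.20 (95% interval from -0.10 to 0.50, adjusted p = 0.238 in limma). ENSOART00020040605 also differed by 0.20 (95% interval from -0.08 to 0.48, adjusted p = 0.218 in limma), and ENSOART00020008363 by -0.26 (95% interval from -1.04 to 0.53, adjusted p = 0.579 in limma). ENSOART00020008363, however, passed the filter on low values through its female libraries, so its test leans towards a higher female level. Another filter cannot change this difference either. With a filter of 1 TPM, or with none, its adjusted p was 0.618 and 0.670 in limma. The median over all transcripts in this contrast was -0.18, so relative to it ENSOART00020016887 and ENSOART00020040605 each stood higher in males by 0.38.

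These values moved with the scaling between libraries. With median-of-ratios scaling the median over all transcripts was 0.01, and both ENSOART00020016887 and ENSOART00020040605 differed by 0.39 (adjusted p = 0.0241 and 0.0256 in limma). With quantile normalization the median was 0.10, and they differed by 0.44 and 0.48 (adjusted p = 0.0154 and 0.00546 in limma), again below a fold of 1.5. With library weights ENSOART00020016887 differed by 0.36 (adjusted p = 0.0466 in limma). ENSOART00020008363 turned to 0.62 with quantile normalization (adjusted p = 0.245 in limma). Without the third FC replicate ENSOART00020040605 differed by 0.30 (adjusted p = 0.0140 in limma). A sex difference in ENSOART00020016887 and ENSOART00020040605 therefore passed the adjusted p, but not the fold, under some of these settings only. Its male side is made of the MC and MFGR libraries on which the study chose the transcripts, so no sex difference is concluded from it.

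The comparisons within control and within growth-restricted fetuses share libraries with the one that chose the transcripts and are given side by side with no test. MC against FC, the log2 differences were -1.26 for ENSOART00020008363, -0.34 for ENSOART00020016887 and -0.19 for ENSOART00020040605. MFGR against FFGR, they were 0.75, 0.74 and 0.58 in the same order. Among growth-restricted fetuses the mean of all 3 was higher in males, also with median-of-ratios scaling, quantile normalization and without the mitochondrial transcripts. Among controls ENSOART00020008363 and ENSOART00020016887 were lower in males under the same settings. For ENSOART00020016887 the difference of -0.34 (standard error 0.20) was only -0.13 relative to the median over all transcripts. ENSOART00020040605 had no stable direction. Its difference of -0.19 was 0.01 relative to the median of -0.20 over all transcripts, and it turned to 0.13 with quantile normalization and to 0.02 without the third FC replicate.

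Apart from the groups, 2 of the transcripts varied together from fetus to fetus. Each library's deviation from its group mean was compared over the 16 libraries for 12 pairs, those among the 3 transcripts and those with FABP4, ADIPOQ and UCP1. ENSOART00020008363 and ENSOART00020040605 had a Pearson r of 0.77 (permutation p = 0.00737, adjusted p = 0.0442) and a Spearman rho of 0.68 (permutation p = 0.00581, adjusted p = 0.0697). Without the first MFGR and the third FC replicate, the farthest from the median, r was 0.56. Here and below, the group means behind such values still include the 2 libraries left out, which leaves a trace of them. Without the third FC replicate alone, and with the means taken anew, r was 0.63. ENSOART00020040605 and FABP4 had an r of 0.82 (permutation p = 0.00350, adjusted p = 0.0420) and a rho of 0.64 (permutation p = 0.0182, adjusted p = 0.0795). Their r was 0.65 without the same 2 libraries, and 0.71 without the third FC replicate alone and with new means. Both relations thus passed the adjustment by Pearson's r only and became weaker without the extreme libraries. ENSOART00020016887 had low correlations with the others, an r of -0.16 to ENSOART00020008363 (permutation p = 0.587, adjusted p = 0.658), of 0.13 to ENSOART00020040605 (permutation p = 0.603, adjusted p = 0.658) and of -0.18 to FABP4 (permutation p = 0.535, adjusted p = 0.658). The other 7 pairs did not pass the adjustment. Among them ADIPOQ went the other way for 2 of the transcripts. Its r was -0.69 to ENSOART00020008363 and -0.68 to ENSOART00020040605 (permutation p = 0.0177 and 0.0236, both adjusted p = 0.0707). Without the first MFGR and the third FC replicate these were -0.52 and -0.42. UCP1 had an r of 0.61 to ENSOART00020040605 (permutation p = 0.0368, adjusted p = 0.0882). TPM values of 1 library share their total, which can tie transcripts to each other.

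**Figure D5:**
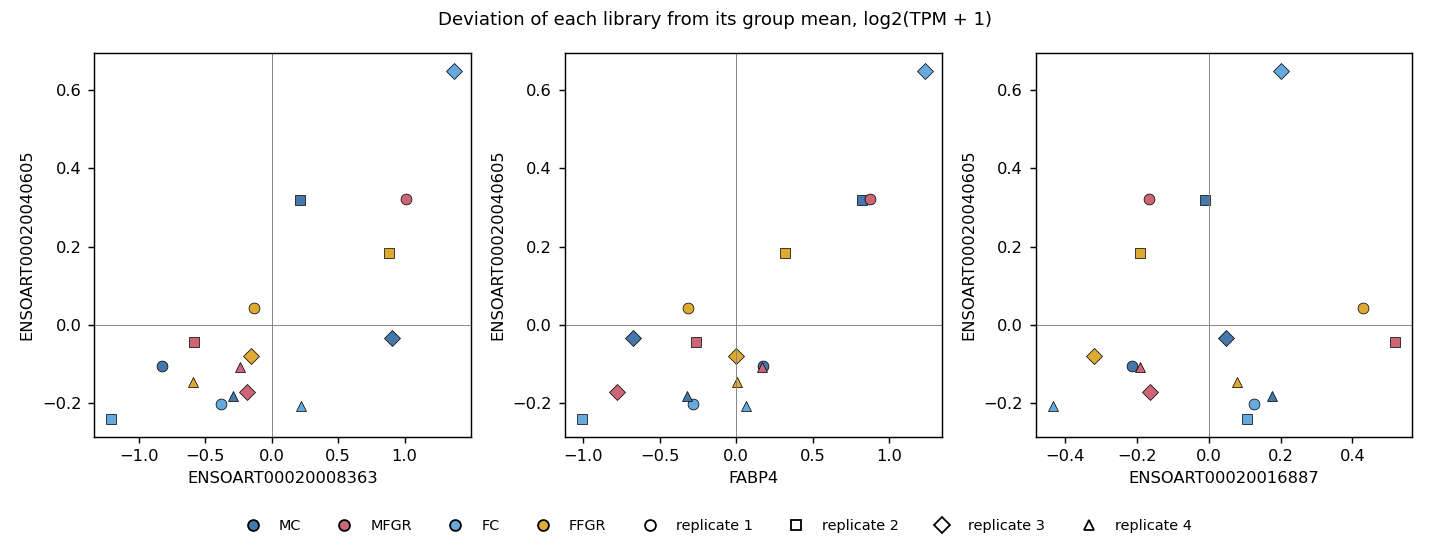
Deviation of each library from its group mean in log2(TPM + 1) for ENSOART00020040605 (vertical axes) against ENSOART00020008363, FABP4 and ENSOART00020016887, each point 1 of 16 libraries. In the left and middle panels the points rise together, with the third FC replicate at the upper right, and in the right panel they do not (r = 0.77, 0.82 and 0.13).

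Among the 18 tested transcripts that the paper names, those whose deviations were most like ENSOART00020008363 were that of leptin, the fat-cell hormone that reports on energy stores (r = 0.70), and FABP4 (r = 0.61). The pair of ENSOART00020008363 and FABP4 did not pass the adjustment (permutation p = 0.0492, adjusted p = 0.0985). Its r was 0.29 without the first MFGR and the third FC replicate. For ENSOART00020040605 the most alike were FABP4 (r = 0.82) and leptin (r = 0.77). The correlations with leptin were ranked only and not tested. The highest values for ENSOART00020016887 were low, 0.28 with ADIPOQ and 0.24 with CIDEA. Leptin did not share the difference between the male groups, with 29.3 ± 12.8 TPM in MC and 24.2 ± 12.9 TPM in MFGR (SD, n = 4).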

How the data were processed

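RNA of 16 fetuses was sequenced. Per the paper's methods and the labels, the authors inspected read quality (FastQC 0.11.9), filtered the reads and ran Salmon (version not given in the sources used here) against the Ensembl transcripts of Oar_rambouillet_v1.0. The authors deposited TPM per transcript, which keeps no counts, so no count model was used. Depth is unknown and precision comes from the spread between fetuses, 4 per group. Transcripts that reached 20 TPM in 3 or more libraries entered a limma fit (version 3.58.1, R 4.3.3) of log2(TPM + 1) with 1 mean per group and a prior variance that follows the mean level. Correlations used 100000 permutations within groups, two-sided. The thresholds are the paper's, and the filter takes its value of 20, which the authors set in CPM, in TPM instead, which is adjusted for transcript length. The fit was tested on simulated data. The replicate numbers of the labels were not taken as a pairing or a batch in the main fit. The transcripts named are the members, the pathway transcripts the paper names and, for likeness, the 2 closest of the transcripts it names. The members and lists were chosen with earlier results of these data known. Alternatives were other pseudocounts, filters, scalings and variance models, a replicate block and leaving out libraries.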

Additional observations from a re-analysis of the deposited data

Results flagged for a closer look

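Dixon's criterion, which chance meets in about 1 of 20 groups, was applied to 28 groups of 4 values on the log2(TPM + 1) scale and marked 3. The second MFGR replicate stood above the other 3 in ENSOART00020016887 (gap over range 0.960), and the fourth FC replicate stood below the other 3 in the same transcript (0.852). The third FC replicate stood above the other 3 in ENSOART00020040605 (0.956). Without the second MFGR replicate the log2 difference of ENSOART00020016887 between MFGR and MC was 1.34. Without the fourth FC replicate its difference between FFGR and FC was 0.30.

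FABP4 was above the MC mean in all 4 MFGR libraries and below the FC mean in all 4 FFGR libraries. The 2 responses differed by 2.26 on the log2 scale, and this difference was not tested here, since the transcript was listed for its change in males.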

How the results depend on the processing

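No alternative called any of the 3 transcripts between FFGR and FC or between males and females, with 0 called without each library too. Of 355 recomputed values, 352 kept their direction and side of the threshold or moved by less than the spread between replicates. This count is no measure of stability, since many of the values could not move. Leaving out a male library cannot change the difference between FFGR and FC, nor a female library that between MFGR and MC. Filters, the prior variance and the replicate block leave every fold change as it is. Sex differences that passed the adjusted p but not the fold are among the 352. ENSOART00020040605 reversed between FFGR and FC without the third FC replicate (0.0855), ENSOART00020008363 reversed between males and females with quantile normalization (0.62), and the mean over the 3 moved there from 0.05 to 0.52, and the cause was not tested. Leaving out each library, the difference between MFGR and MC ranged from 0.91 to 1.55 for ENSOART00020008363, from 1.34 to 1.58 for ENSOART00020016887 and from 0.54 to 0.75 for ENSOART00020040605. Between FFGR and FC the ranges were -1.17 to -0.31, 0.30 to 0.55 and -0.21 to 0.09, and adjusted p over all alternatives ran from 0.269 to 0.999. With only the 8 male libraries ENSOART00020008363 did not reach the filter and has no value. Without the mitochondrial transcripts in the total, the median over all transcripts between MFGR and MC was -0.17, and the differences of the 3 were 1.16, 1.40 and 0.52.

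Same-numbered libraries of different groups had deviations correlated between -0.21 and 0.27, above 0.1 in 6 of 24 pairs, and a library was closest to its own number in 13 of 48 cases. No clear pairing by number was seen, but this check could miss a weak pairing or a shared batch. With the replicate number as a block, the adjusted p between FFGR and FC was 0.840, 0.715 and 0.929 for ENSOART00020008363, ENSOART00020016887 and ENSOART00020040605, and 0 transcripts were called. TPM gives no depth, so a low transcript such as ENSOART00020008363 has no counting error of its own here.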
